A study of Mus musculus with 10 samples.

Results

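Chromatin accessibility was compared between control Th17 cells grown with sodium acetate and control Th17 cells grown without it. The libraries were chosen by their labels and column names: 2 WT acetate libraries and 3 WT untreated libraries, which are 5 of the 10 libraries of the series. All 39657 sites of the deposited table were used. Naive CD4+ T cells came from the spleen and lymph nodes of mice with floxed alleles of pyruvate dehydrogenase, the enzyme that turns pyruvate into mitochondrial acetyl-CoA. The cells were cultured for 3 days with anti-CD3 at 5 µg/mL, anti-CD28 at 1 µg/mL, IL-6 at 30 ng/mL, anti-IFNγ at 5 µg/mL and TGFβ at 2 ng/mL. WT cells were PDHfl/fl without Cre, so both groups carried the floxed alleles and had the enzyme. The acetate group also received 10 mM sodium acetate. KO cells, PDHfl/fl with CD4 Cre, which deletes in T cells, form the other 5 libraries (3 untreated, 2 acetate) and served to estimate the spread and for a comparison at the end. Nothing in the labels says that libraries of a group came from separate animals, so p-values measure only the spread between these libraries, which may be technical.

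ATAC-seq reads how readily a transposase enters chromatin, and open sites mark promoters, enhancers and other bound DNA. Th17 cells are helper T cells that make IL-17A and IL-17F, and their identity rests on transcription factors such as BATF, IRF4, STAT3 and MAF. Cells turn acetate into acetyl-CoA with acetyl-CoA synthetases (ACSS1 in mitochondria, ACSS2 in cytosol and nucleus). Acetyl-CoA feeds the citric acid cycle and fatty acid and sterol synthesis and is the donor for histone acetylation, a mark of open chromatin. In bulk cells a lower signal from fewer cells of a type and a lower signal per cell cannot be told apart.

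The promoter of Klk1b9, a tissue kallikrein gene, held the site with the largest rise at any promoter, and promoters of Lif, Cab39l and Cryzl2 also held sites that rose, while those of Atad5 and Nubp2 held sites that fell. These are shown because their sites passed the test as deposited, with the prefix of the column name (ATAC1 or ATAC2) as a term, and after cyclic loess scaling, which evens out differences between libraries that depend on signal. Each line gives 250 bases before the gene's start, 5′ to 3′ on the gene's strand, from RefSeq on GRCm38.p6. Capitals mark matches, on either strand, to 12 searched motifs given with the promoter results. A site covers only part of the bases shown. The RUNX and CTCF core matches at Lif, the NFAT match at Cryzl2 and the E-boxes at Nubp2 lie outside the site.
Klk1b9, chr7:43975811-43976060, plus strand: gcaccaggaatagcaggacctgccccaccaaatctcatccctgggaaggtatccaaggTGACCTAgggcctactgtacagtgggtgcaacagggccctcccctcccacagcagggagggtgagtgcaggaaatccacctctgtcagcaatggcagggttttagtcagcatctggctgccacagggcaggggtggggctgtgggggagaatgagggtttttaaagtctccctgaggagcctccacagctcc
Lif, chr11:4257318-4257567, plus strand: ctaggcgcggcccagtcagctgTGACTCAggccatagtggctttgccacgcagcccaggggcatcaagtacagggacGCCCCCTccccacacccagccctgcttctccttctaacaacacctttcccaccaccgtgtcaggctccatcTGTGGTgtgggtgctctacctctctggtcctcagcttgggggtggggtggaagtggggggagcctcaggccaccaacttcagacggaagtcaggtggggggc
Cab39l, chr14:59478701-59478950, plus strand: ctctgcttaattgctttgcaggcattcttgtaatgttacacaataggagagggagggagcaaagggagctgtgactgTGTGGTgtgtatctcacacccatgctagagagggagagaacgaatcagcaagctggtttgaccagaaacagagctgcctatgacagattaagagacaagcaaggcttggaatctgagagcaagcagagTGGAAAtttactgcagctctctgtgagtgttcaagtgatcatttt
Cryzl2, chr1:157458318-157458567, plus strand: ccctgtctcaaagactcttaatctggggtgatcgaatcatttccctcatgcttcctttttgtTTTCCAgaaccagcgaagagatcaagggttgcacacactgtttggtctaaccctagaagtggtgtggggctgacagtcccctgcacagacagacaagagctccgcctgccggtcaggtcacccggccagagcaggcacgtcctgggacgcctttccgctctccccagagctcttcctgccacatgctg
Atad5, chr11:80089150-80089399, plus strand: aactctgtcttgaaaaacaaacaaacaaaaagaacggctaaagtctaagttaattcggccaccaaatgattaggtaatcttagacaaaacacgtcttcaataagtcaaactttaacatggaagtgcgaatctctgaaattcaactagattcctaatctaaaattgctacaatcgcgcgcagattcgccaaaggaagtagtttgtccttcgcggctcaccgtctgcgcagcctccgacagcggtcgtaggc
Nubp2, chr17:24885942-24886191, minus strand: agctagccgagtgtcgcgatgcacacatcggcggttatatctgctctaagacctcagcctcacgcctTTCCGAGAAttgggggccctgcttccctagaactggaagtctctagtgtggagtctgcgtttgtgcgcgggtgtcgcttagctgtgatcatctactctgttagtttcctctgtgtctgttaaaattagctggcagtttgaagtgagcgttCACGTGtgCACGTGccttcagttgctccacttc

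Signal is given as deposited: read numbers per site, scaled by a single factor for each library. Reads in sites numbered 9034127, 9033536 and 9623689 in the untreated libraries and 3500172 and 13356560 in the acetate libraries, so the first acetate library had a median of 57 reads per site and the second 233. Sites with strong signal lay near Cd4, Cd3e, Cd3g and Cd28 and near Il17a, Il23r and Ccr6. The strongest site of each of these genes stood between percentile 81.5 (Ccr6) and 98.5 (Il17a) of all sites by mean signal, and that of Il17f stood at percentile 68.7. The column names begin with ATAC2 for both acetate libraries and for 1 untreated library (number 4), and with ATAC1 for untreated libraries 1 and 2. The labels do not say what the prefix stands for. After cyclic loess scaling, the median absolute log2 difference over sites was 0.17 between the untreated ATAC1 libraries and 0.22 between the acetate libraries. It was 0.29 and 0.36 between the untreated ATAC2 library and the untreated ATAC1 libraries, and 0.30 and 0.32 between it and the acetate libraries. The untreated ATAC2 library thus stood about as far from the untreated ATAC1 libraries as from the acetate libraries, and a named call that was lost with the prefix as a term is marked as lost beside it.

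Accessibility was higher with acetate at some sites and lower at about as many, a small share of the table in each direction, and few of them were promoters. Of 39657 sites, 1155 (2.91%) were called higher and 1199 (3.02%) lower with acetate by limma at a Benjamini-Hochberg adjusted p under 0.05, which is 5.94% in all. The median log2 difference was 1.06 over the sites called higher and -1.05 over those called lower, and 688 sites in each direction differed at least 2-fold. The largest called differences were 2.47 and -2.85. Over all sites the median was -0.03. Signal at the sites called higher had a median of 76.2, 73.3 and 69.7 in the untreated libraries, the last of them ATAC2, and 160.0 and 148.1 in the acetate libraries. At the sites called lower it was 161.1, 133.6 and 112.8 untreated and 58.5 and 66.7 with acetate. The groups did not overlap at 1145 of the 1155 and 1167 of the 1199, against 31.4% of all sites (16.1% with acetate above, 15.3% below). These medians describe the sites chosen by the call. The spread behind the calls was estimated from all 10 libraries. From the 5 WT libraries alone, 369 sites were called higher and 364 lower, 1.85% in all. Of the 121 named sites called, 45 passed in that fit.

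**Figure D1:**
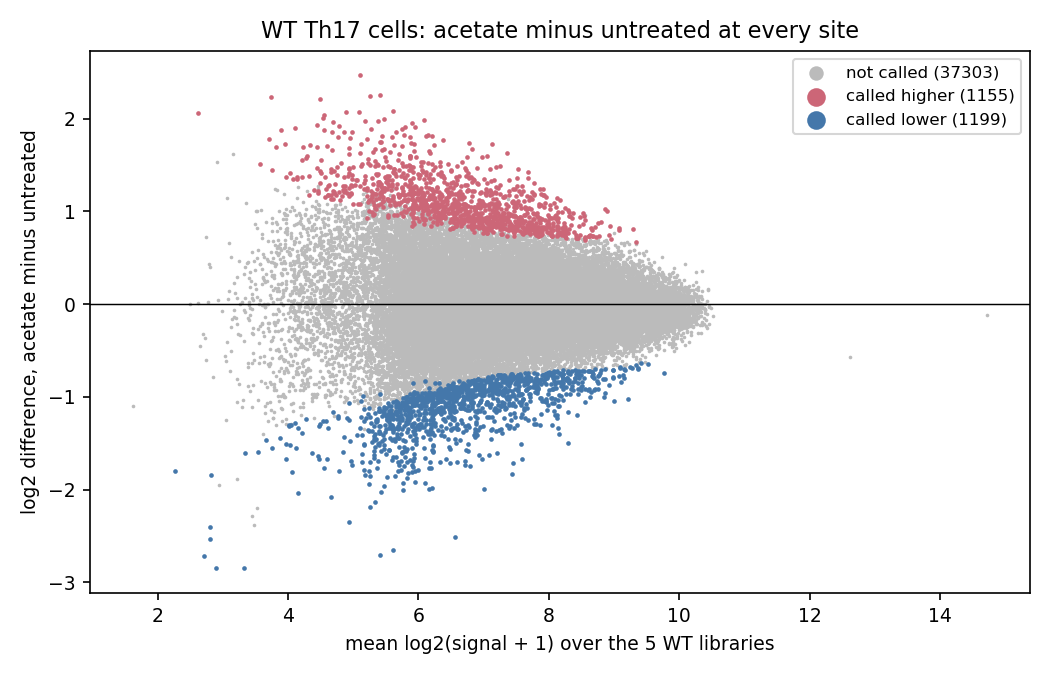
Log2 difference between acetate and untreated WT libraries (y axis) against mean log2(signal + 1) over the 5 WT libraries (x axis), 1 point per site, with the 1155 sites called higher and 1199 called lower coloured. Calls lie at log2 differences from 0.67 to 2.47 and from -0.64 to -2.85, and thin out toward the strongest sites.

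The plot of log2 difference against mean signal shows a cloud centred near 0 at every level of signal. The called sites form its upper and lower edges. With the prefix as a term in the model, the contrast rests on the 2 acetate libraries against the single untreated ATAC2 library. It then gave 1555 sites higher (3.92%) and 412 lower (1.04%), 4.96% in all, and it kept 602 of the 1155 and 245 of the 1199 calls. No site called in either direction was called the other way, and the same sign was found at 1151 of the 1155 and 1197 of the 1199. The WT groups did not overlap at 1145 and 1167 of these sites, and there the sign cannot turn in this contrast. Cyclic loess called 1757 higher (4.43%) and 1615 lower (4.07%), 8.50% in all. Sites called in 1 direction as deposited, with the prefix term and with cyclic loess numbered 571 higher (1.44%) and 236 lower (0.595%). Between the single untreated ATAC2 library and the 2 untreated ATAC1 libraries, with no acetate on either side, 774 sites (1.95%) were called higher and 1268 (3.20%) lower, which is 5.15% in all and near the 5.94% of the acetate comparison. At the sites called lower with acetate the median of this untreated difference was -0.40, and at the sites called higher it was -0.01. These contrasts share libraries, so their values are set side by side only.

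The count changed when single libraries were left out. With 1 acetate library left out, that group holds 1 library. This widens the standard error whichever it is, so lower counts there do not show that 1 library drove the calls. Without the first acetate library, the shallowest, 132 sites were called higher and 154 lower. Without the second the counts were 335 and 567. Leaving out untreated library 1 gave 628 and 305, and leaving out untreated library 2 gave 1018 and 1081. Without the untreated ATAC2 library they were 1692 and 2370. Every one of the 1155 and 1199 sites kept its direction in each of these 5 fits. This was largely fixed by the call. The groups did not overlap at 1145 and 1167 of the sites, where leaving out 1 library cannot turn the sign.

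The largest rises at well-covered sites were 2.28 to 2.75-fold. They lay near 13 genes, of which 9 sites were between genes, 3 in gene bodies and 1 within 1 kb of a gene end. Signal there was 88.7 to 222.2 in the untreated libraries and 261.9 to 433.8 in the acetate libraries, with no overlap at any of them. At chr11:32762910-32763110, 16.1 kb from Fbxw11, which encodes the substrate-binding subunit of a ubiquitin ligase, signal was 111, 137 and, for ATAC2, 122 untreated, and 335 and 342 with acetate. Both acetate libraries were above every untreated one, and the means were 123 ± 12.8 (SD, n = 3) and 339 ± 4.62 (SD, n = 2). The log2 difference was 1.46 ± 0.25 (SE, limma adjusted p = 2.44e-05), and with the prefix as a term 1.47 ± 0.31 (adjusted p = 0.000522).

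Runx2, a Runt-domain transcription factor, was among the genes with the largest rises that also passed with the prefix term. At chr17:44460218-44460418, 35.6 kb from the gene, signal was 151, 138 and, for ATAC2, 92.9 untreated, and 345 and 299 with acetate. The untreated ATAC2 library was the lowest of the 5 here, and the log2 difference was 1.36 ± 0.26 overall (adjusted p = 0.000139) and 1.78 ± 0.32 with the prefix term. Of 34 sites assigned to Runx2, 4 were called higher and none lower, against 2.91% and 3.02% of all sites. Of the 4, 2 passed as deposited, with the prefix term and with loess. Near Ch25h, whose enzyme makes 25-hydroxycholesterol, signal at chr19:34451034-34451234 was 175, 161 and, for ATAC2, 91.8 untreated, and 317 and 325 with acetate, a log2 difference of 1.22 ± 0.26 (adjusted p = 0.000726). Ccl5 encodes a chemokine of effector T cells. Its nearby site at chr11:83534989-83535189 read 122, 133 and, for ATAC2, 121 untreated, and 338 and 262 with acetate (1.24 ± 0.25, adjusted p = 0.00035). The 2 acetate libraries lay above all 3 untreated libraries at each of these sites.

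The remaining rises of this kind were near Cmip, which encodes an adaptor protein of T cell signalling (log2 1.42), Fndc1, a fibronectin-domain protein (1.36), Pde4d, a cyclic AMP phosphodiesterase (1.27), Igf2bp3, an RNA-binding protein (1.24), Cd70 (1.24), Nav1 (1.22), Fgf16, a fibroblast growth factor (1.21), and Farp1, a guanine nucleotide exchange factor (1.19), as well as in Atp8b1, a phospholipid flippase gene (1.25). Of the 13 sites, 10 passed with the prefix term, those of Igf2bp3 (0.86), Nav1 (0.78) and Atp8b1 (0.85) being lost, and 9 passed whichever WT library was left out. Without the single library that mattered most, the highest adjusted p was 0.132 at Farp1, 0.104 at Ccl5, 0.0748 at Igf2bp3 and 0.0614 at Fgf16.

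Falls were somewhat deeper. The 13 sites chosen by the same rule, 6 in gene bodies and 7 between genes, held 0.282 to 0.421 times the untreated level. In the body of Ccm2, which encodes a scaffold protein of endothelial and other cell junctions, signal at chr11:6560984-6561184 was 392, 257 and, for ATAC2, 232 untreated, and 76.9 and 82.8 with acetate. Every untreated library was above both acetate libraries, with means of 294 ± 86.0 (SD, n = 3) and 79.9 ± 4.19 (SD, n = 2). The log2 difference was -1.83 ± 0.25 (adjusted p = 6.6e-08) and -1.53 ± 0.31 with the prefix term (adjusted p = 0.000235).

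At Mkln1, which encodes muskelin, a part of a ubiquitin ligase complex, the site chr6:31489986-31490186 in the gene body read 338, 305 and, for ATAC2, 214 untreated, and 95.4 and 75.1 with acetate (-1.72 ± 0.25, adjusted p = 4.12e-07). The untreated ATAC2 library lay between the other untreated libraries and the acetate libraries there, as it did at Ccm2. Near Art2b, a surface ADP-ribosyltransferase of T cells, signal at chr7:101551189-101551389 was 369.6, 284 and, for ATAC2, 226 untreated, and 102 and 99.0 with acetate (-1.51 ± 0.25, adjusted p = 7.13e-06). In Clec16a, which encodes a regulator of autophagy, the untreated ATAC2 library was not between: chr16:10585298-10585498 read 479, 345 and, for ATAC2, 415 untreated, and 160.0 and 162 with acetate. The difference there was -1.34 ± 0.24 overall and -1.36 ± 0.30 with the prefix term.

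Other falls were at Lcn4, a lipocalin gene (-1.67), Srp9, a signal recognition particle subunit (-1.50), Sh2d3c, an adaptor (-1.40), Myh9, a non-muscle myosin heavy chain (-1.33), Fkbp1a, the target of tacrolimus (-1.31), Emsy (-1.31), Gm52008 (-1.30), Nabp1, a single-stranded DNA binding protein (-1.30), and Gbp8, a guanylate-binding protein (-1.25). Of the 13, 10 passed with the prefix term, those of Myh9 (-0.70), Fkbp1a (-0.92) and Emsy (-0.83) being lost, and 11 passed whichever WT library was left out, and Fkbp1a and Gbp8 were the exceptions, with highest adjusted p of 0.19 and 0.0546. Among all 310 falls that met the rule's conditions 32 passed with the prefix term and loess, against 139 of 277 rises.

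**Figure D2:**
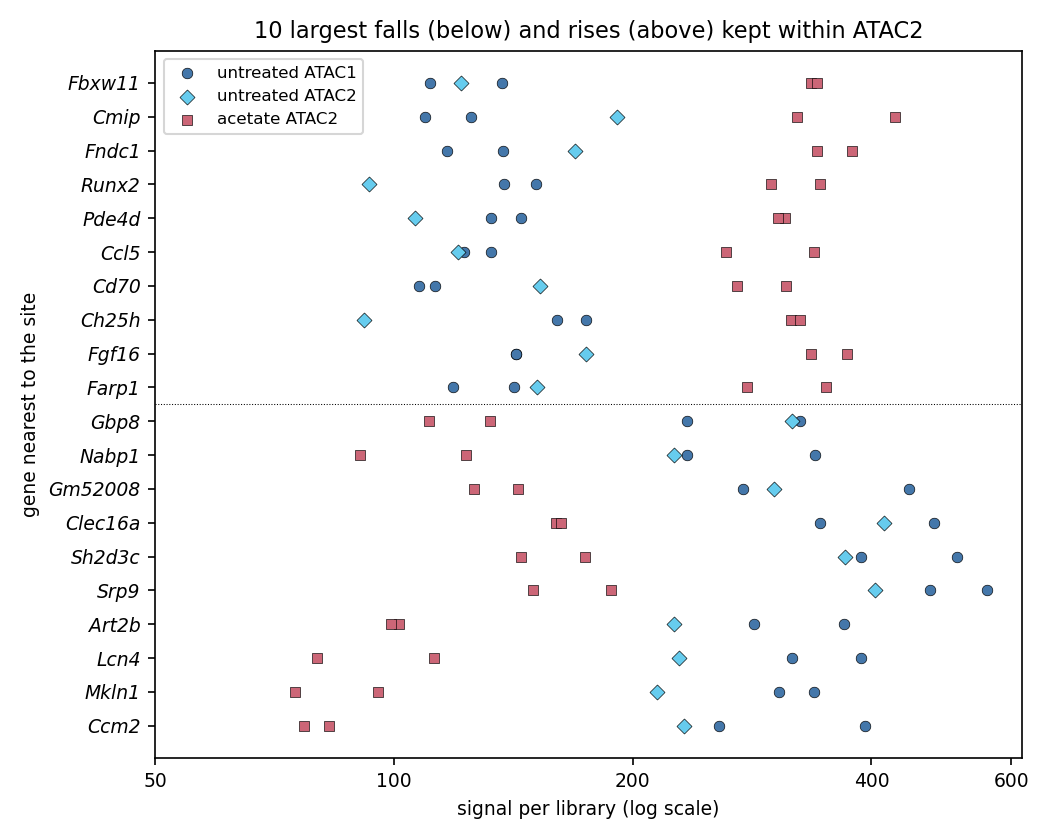
Signal as deposited (x axis, log scale) in each of the 5 WT libraries at the 10 largest falls and 10 largest rises (1 row per site, named by the nearest gene) that were also called with the prefix term and with cyclic loess. Acetate libraries and untreated libraries do not overlap at any of the 20 sites, and the untreated ATAC2 library has its own marker.

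The per-library plot of these sites puts the untreated ATAC2 library on the untreated side at each of them, which the rule required. Its position within that side varied: it was the lowest untreated library at Runx2 and Ch25h and the highest at Cmip.

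Few promoter sites were called. Of the 5864 sites overlapping the 300 bases around a gene start in the RefSeq table, 24 were called higher and 11 lower, 0.597% in all against 5.94% of all sites. With the prefix term the balance turned over: 0.136% were higher and 0.972% lower, against 4.58% and 1.05% of the sites outside these windows, so the share that fell was then about that elsewhere. The median over these promoter sites was -0.06 as deposited and -0.29 with the term. The largest difference among the called promoter sites was at the site shown above at Klk1b9, chr7:43975857-43976057, which read 16.2, 16.1 and, for ATAC2, 16.6 untreated, and 92.3 and 96.9 with acetate. The 3 untreated libraries lay close together at a weak signal, and both acetate libraries were far above them. The log2 difference was 2.47 ± 0.35 (adjusted p = 2.59e-07) and 2.44 ± 0.44 with the prefix term. Kallikrein genes of this family are near-identical copies on chromosome 7, so reads may have been shared among them.

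At the promoter of Lif, the gene of an IL-6 family cytokine, the site chr11:4257176-4257376 read 84.9, 80.4 and, for ATAC2, 31.0 untreated, and 182 and 147 with acetate (1.44 ± 0.33, adjusted p = 0.00215). The untreated ATAC2 library was the lowest, and the difference with the prefix term was 2.36 ± 0.39. Cab39l, which encodes an activator of the kinase LKB1, had 82.4, 86.4 and, for ATAC2, 65.2 untreated, and 129 and 201 with acetate at chr14:59478723-59478923 (1.05 ± 0.29, adjusted p = 0.0117). At Atad5, an unloader of the replication clamp, signal fell from 164, 105 and, for ATAC2, 170.3 to 76.9 and 71.6 at chr11:80089335-80089535 (-0.94 ± 0.27, adjusted p = 0.02). At the start shared by Nubp2, an iron-sulphur cluster assembly factor, and its neighbour Spsb3, chr17:24885980-24886180 read 119.9, 62.3 and, for ATAC2, 88.5 untreated, and 46.2 and 32.3 with acetate (-1.15 ± 0.32, adjusted p = 0.0125). Cryzl2, at chr1:157458409-157458609, read 192, 205 and, for ATAC2, 180.2 untreated, and 375 and 315 with acetate (0.84 ± 0.24, adjusted p = 0.0193). In each of the 6, acetate and untreated libraries did not overlap, and the Klk1b9 site alone passed whichever WT library was left out.

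Other promoters with a site that rose were those of Il3, a haematopoietic cytokine (1.30), Hdac11, a histone deacetylase (0.74), and Fah, the last enzyme of tyrosine breakdown (0.92), and among those that fell were Cd101, an inhibitory surface protein (-1.30), Cd48, a receptor of the SLAM family (-0.98), Igtp, an interferon-induced GTPase (-0.76), and Gimap3, a lymphocyte GTPase (-0.75). These promoter sites were chosen for mention after their values were seen. All 7 calls were lost with the prefix term.

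The motifs were searched on both strands of the 250 bases before each start in 21263 promoters, 37 of which held a called site (25 higher, 12 lower). AP-1 (TGANTCA) was in 3 of the 25 and 0 of the 12, against 3.70% of promoters with any site. RUNX (TGTGGT) was in 7 and 4 (10.6%), ETS (CCGGAAG) in 1 and 1 (18.8%), and the ROR element (TAGGTCA) in 1 and 0 (1.56%). TCF and LEF (CTTTGAA) was in 1 and 2 (2.90%), and STAT (TTCNNNGAA) in 0 and 3 (5.78%). The IRF motif GAAACTG was in 2 promoters with a rise and 2 with a fall (4.31%). The motif of GATA factors, spelled AGATAA, was in 1 and 2 of them (4.74%). The CTCF core (AGGNGGC) was in 9 and 2 (36.4%), SP and KLF (GGGCGGG) in 12 and 0 (48.9%), the E-box (CACGTG) in 1 and 3 (9.56%), and NFAT (TGGAAA) in 3 and 3 (13.2%). Among all 21263 promoters the shares were 6.13% for AP-1, 12.4% for RUNX, 8.98% for ETS, 2.02% for the ROR element, 4.05% for TCF and LEF, 4.75% for IRF, 8.81% for GATA, 6.58% for STAT, 28.7% for the CTCF core, 31.1% for SP and KLF, 6.63% for the E-box and 17.0% for NFAT. Median GC content was 58.4% in the promoters with a site that rose, 48.4% in those with one that fell and 61.6% in all with a site. A match is a description of letters only, it need not lie within the called site, and short motifs follow base composition.

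Distance from genes went with the share of sites called as deposited. Within 1 kb of a gene end 1.68% of 9827 sites were called (70 higher, 95 lower), in gene bodies 7.11% of 16800 (502 and 693), between genes within 50 kb 6.64% of 9817 (375 and 277), and beyond 50 kb from any gene 10.6% of 3213 (208 and 134). Strength of signal moved with position: median untreated signal was 372.1 at gene ends and 109.3 beyond 50 kb. Sites were also split by mean signal into 5 equal classes. In class 1, the weakest, 9.78% of sites were called, and in class 5, the strongest, 0.630%. As deposited, the gene ends had the smallest share of called sites within each class: 6.82% against 13.6% beyond 50 kb in class 1, and 1.11% against 7.04% in class 4.

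**Figure D3:**
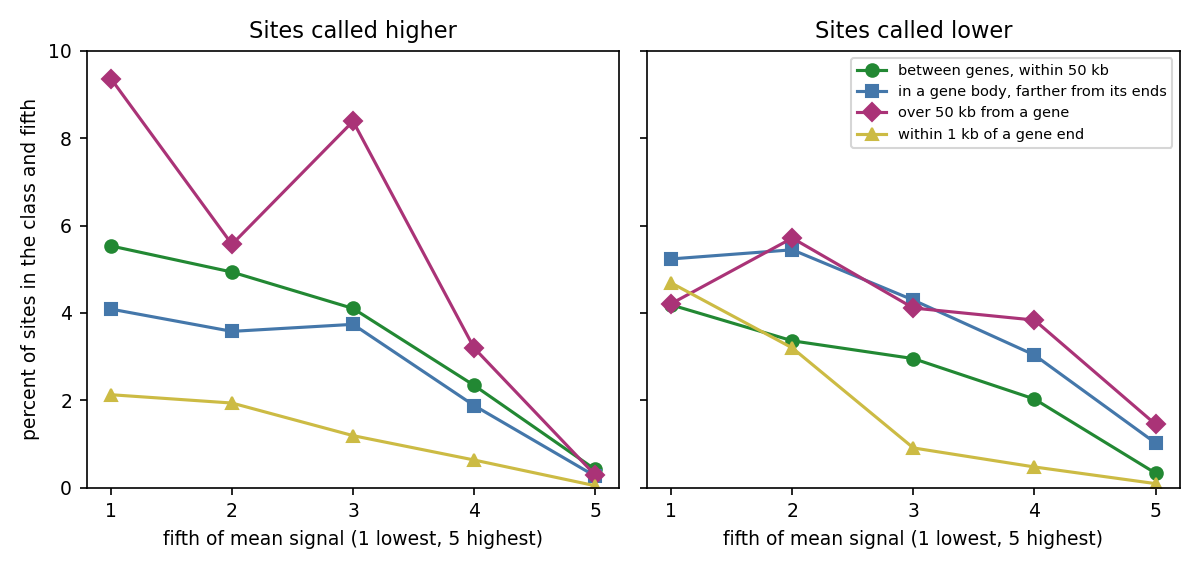
Percent of sites called higher (left) and lower (right) with acetate in WT cells (y axis), by limma as deposited, by class of mean signal (x axis, 5 equal classes, 1 lowest, 5 highest), 1 line per position class. Gene ends lie under the other classes in every class among the rises and from class 2 onward among the falls, and sites over 50 kb from a gene lead among the rises in class 1 at 9.36%.

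In the plot by position and signal the classes fall together toward the strongest sites. Without a prefix term, the median log2 difference was -0.06 at gene ends and 0.08 beyond 50 kb. With the term it was -0.27 and 0.18, and between the untreated ATAC2 and ATAC1 libraries it was 0.29 and -0.18. A tilt between gene ends and gene deserts was therefore present between untreated libraries of different prefix. With the prefix term 0.570% of gene end sites and 7.84% of those beyond 50 kb were higher, but among falls the gene ends had the largest share, 1.29% against 1.14% in gene bodies, 0.611% between genes within 50 kb and 1.03% beyond. In class 1 that share was 2.98% at gene ends against 1.97% beyond 50 kb, and in class 4 it was 1.55% against 0. The smaller share at gene ends thus held with the prefix term for rises and not for falls.

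The gene lists below are read against the shares of all sites: 2.91% higher and 3.02% lower as deposited, and 3.92% and 1.04% with the prefix term. No site was called at the loci of IL-17A, IL-17F, the IL-23 receptor, CCR6 or IL-21 by limma as deposited. At an unadjusted p under 0.05 there were 2 sites at Il17a, 1 at Ccr6, 4 at Il21 and 0 at the others. Of all 39657 sites, 7172 had an unadjusted limma p under 0.05, and such counts here and below are read against that. Il17a had 7 sites with log2 differences from -0.26 to 0.57, and Il17f had 4 from -0.43 to 0.23. At chr1:20736640-20736840, 2.14 kb from Il17a, signal was 227, 250.2 and, for ATAC2, 195 untreated, and 338 and 326 with acetate. Acetate libraries were above all untreated ones, yet the difference of 0.57 ± 0.24 did not pass (adjusted p = 0.153). Il23r, the receptor subunit for IL-23, had 7 sites from -0.02 to 0.54. Ccr6, a chemokine receptor of Th17 cells, had 3 from -0.79 to -0.19, and Irf4 had 5 from -0.35 to -0.03. At Il21 the 11 sites ran from -0.64 to 0.73, and at Ahr, an environmental sensor, the 3 sites ran from -0.68 to 1.08. Of all these loci, 1 site at Il17a and 1 at Ahr passed with the prefix term, both higher, and with cyclic loess 1 site at Il21 was higher and 1 lower.

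Batf, an AP-1 family factor required for Th17 cells, had 1 of 3 sites called. At chr12:85664336-85664536, 22.2 kb from the gene, signal was 45.0, 30.1 and, for ATAC2, 29.9 untreated, and 129 and 116 with acetate. Each acetate library was over 2 times the highest untreated library, with means of 35.0 ± 8.64 (SD, n = 3) and 123 ± 9.47 (SD, n = 2). The log2 difference was 1.80 ± 0.28 (adjusted p = 1.72e-06) and 2.00 ± 0.34 with the prefix term, and it passed whichever WT library was left out. Maf had 1 of 3 sites called higher (61.2, 72.3 and, for ATAC2, 89.6 untreated, and 154 and 126 with acetate, adjusted p = 0.0201), a call lost with the prefix term. Of 183 sites at the Th17 programme genes 4 were higher and 5 lower (4.92% called, 15 higher and 0 lower with the prefix term), and their median log2 difference was -0.01. Among the called were Runx1, a Runt-domain factor, at -0.94, and Sgk1, a salt-sensing kinase of Th17 cells, at -0.91, both lost with the prefix term (-0.94 and -0.81).

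Il2, the growth factor of activated T cells, had 2 of 3 sites called higher. At chr3:37157120-37157320, 31.2 kb from Il2, signal was 207, 188 and, for ATAC2, 200.1 untreated, and 418 and 428 with acetate, so the untreated ATAC2 library lay between the other untreated libraries and the acetate libraries were about 2 times as high. The log2 difference was 1.09 ± 0.24 (adjusted p = 0.0014) and 1.08 ± 0.30 with the prefix term. The weak site within 1 kb of the Il2 gene read 9.99, 9.04 and, for ATAC2, 22.1 untreated, and 30.8 and 60.4 with acetate (1.69 ± 0.40), and there the call was lost with the prefix term (0.93 ± 0.48, adjusted p = 0.287). Among 210 sites at T cell activation and AP-1 genes 7 were higher and 2 lower (4.29% called, against 5.94% of all sites, median 0.03), and 6 and 0 with the prefix term. Fosb, an AP-1 subunit (1.21), and Nfkb1, an NF-κB subunit (0.79), had sites that rose and Nfatc2, the calcium-responsive factor NFAT1, one that fell (-0.77). All 3 of these calls were lost with the prefix term (0.68, 0.45 and -0.64; adjusted p = 0.302, 0.442 and 0.188).

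Genes of naive and memory T cells had 2 higher and 10 lower of 352 sites (median -0.08). At 3.41% called this was under the 5.94% of all sites, and with the prefix term the counts were 8 higher and 2 lower. Neither Tcf7 (17 sites) nor Lef1 (34 sites), factors of naive T cells, had a called site as deposited, and 2 and 4 of their sites had an unadjusted p under 0.05. With cyclic loess 1 site at Tcf7 was lower, and with the prefix term 1 at Lef1 was higher. Bach2, a repressor that keeps T cells undifferentiated, read 1232, 1012 and, for ATAC2, 967 untreated, and 655 and 619.9 with acetate at chr4:32291397-32291597 (-0.74 ± 0.20, adjusted p = 0.0122). Foxo1, a factor of T cell quiescence, had a site that fell (-1.09), and Bcl2, the survival factor, had 4 of 16 lower. The named sites of Bach2, Foxo1 and Bcl2 were lost with the prefix term, with values of -0.60, -0.59 and -0.54. Myb, a factor of stem-like T cells, had a site that rose (1.30, and 2.25 with the prefix term).

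Regulatory T cell genes had 0 higher and 5 lower of 100 sites (5.00% called, median -0.07), near the share of all sites, and 1 higher and 1 lower with the prefix term. Lrrc32 encodes GARP, the anchor of latent TGFβ. A site 29.9 kb from it, chr7:98531708-98531908, read 137, 103 and, for ATAC2, 77.4 untreated, and 33.8 and 25.3 with acetate, without overlap (-1.78 ± 0.34, adjusted p = 0.000117, and -1.37 ± 0.41 with the prefix term). Ctla4, an inhibitory receptor (-1.27), Itgae, the integrin CD103 (-0.87), and Nt5e, the ectonucleotidase CD73 (-0.90), each had a site that fell, and these calls were lost with the prefix term. Il2ra, the IL-2 receptor alpha chain, had 1 of 9 sites lower (-0.74), also lost with the term (-0.36, adjusted p = 0.568), and the single Foxp3 site differed by -0.19 ± 0.33 (adjusted p = 0.864).

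Th1 genes had 3 higher and 3 lower of 84 sites (7.14% called, median 0.02), and 5 higher and 0 lower with the prefix term. Th2 genes had 1 and 1 of 72 in both fits (2.78% called, median -0.01). Stat4, the signal transducer of IL-12, rose in its gene body (136, 107 and, for ATAC2, 105 untreated, and 212 and 235 with acetate, 0.95 ± 0.26, and 1.08 with the prefix term, which it passed). Tbx21, the Th1 master factor, had 1 of 4 sites lower (-0.95 ± 0.31, adjusted p = 0.0433), Il18r1 1 lower (-0.86), and none of 5 sites at Ifng was called (1 at an unadjusted p under 0.05, and 1 higher with cyclic loess). Gata3, the Th2 master factor, had 1 of 11 higher (0.80), and a site near Il5 fell (-1.14). With the prefix term the calls at Tbx21, Il18r1, Gata3 and Il5 were lost (adjusted p = 0.105, 0.111, 0.496 and 0.44), and the differences at Gata3 and Il5 were 0.42 and -0.46. Sites of inhibitory receptors numbered 76, with 2 higher and 2 lower (5.26% called, median 0.04), and 1 and 1 with the prefix term. Lag3, an inhibitory receptor, rose within 1 kb of a gene end from 325, 261 and, for ATAC2, 499.7 to 775 and 649 (1.02 ± 0.24, adjusted p = 0.00215) a call lost with the prefix term (0.50). Tox, a factor of exhausted T cells, fell from 64.9, 75.3 and, for ATAC2, 57.5 to 24.6 and 18.3 (-1.58 ± 0.37), and Cd274, which encodes PD-L1, rose from 121, 151 and, for ATAC2, 91.8 to 188 and 282 (0.95 ± 0.25). The Tox and Cd274 sites passed with the prefix term.

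Genes that take up acetate and make acetyl-CoA had no called site among 27 by limma (median -0.02), with 3 at an unadjusted p under 0.05. The prefix term gave 1 higher and cyclic loess 1 lower. The single Acss2 site read 68.7, 64.3 and, for ATAC2, 63.0 untreated, and 64.6 and 70.2 with acetate, a difference of 0.04 ± 0.31 that was within the spread of the libraries (adjusted p = 0.972). Acss1 had 2 sites at -0.19 and 0.46, and Acly, which splits citrate into acetyl-CoA, had 2 at -0.06 and 0.64, the larger with adjusted p = 0.0987. Fatty acid synthesis genes had 0 higher and 3 lower of 57 (5.26%, median -0.03): Elovl1, a fatty acid elongase (-1.25), Acsl1, an acyl-CoA synthetase (-1.15), and Acaca, acetyl-CoA carboxylase (-1.10), of which Elovl1 (-0.55) and Acsl1 (-0.47) were lost with the prefix term. The call at Acaca was lost with cyclic loess (limma adjusted p = 0.0647). With the prefix term the list had 1 higher and 1 lower. Cholesterol synthesis genes had 3 higher and 0 lower of 41 (7.32%, median 0.08). They were Pmvk (1.20) and Mvk (1.07), kinases of the mevalonate pathway, and Sc5d, a sterol desaturase (0.99), of which Mvk passed with the prefix term (1.28) and Pmvk (0.79) and Sc5d (0.89) were lost.

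The pyruvate dehydrogenase and citric acid cycle genes had 2 higher and 5 lower of 68 sites, 10.3% against the 5.94% of all sites, and the 7 called sites lay at 4 genes. With the prefix term the counts were 7 higher and 1 lower. Pdhx, the E3-binding subunit of pyruvate dehydrogenase, had a nearby site that rose (1.13), as did Suclg2, a succinyl-CoA ligase subunit (1.27). A site near Pdp1, the phosphatase that activates pyruvate dehydrogenase, fell (-1.01), a call lost with the term (-0.68), which those at Pdhx and Suclg2 passed. The single Pdha1 site differed by -0.84 ± 0.29 (adjusted p = 0.066). Glycolysis genes had 2 higher and 2 lower of 73 (5.48%, median 0.04), and 2 and 1 with the prefix term. A weak site of Hk1, a hexokinase, read 33.7, 23.1 and, for ATAC2, 75.2 untreated, and 98.5 and 81.4 with acetate (1.18). The untreated ATAC2 library was the highest of the untreated there, and with the prefix term the difference was 0.25 ± 0.42 and the call was lost (adjusted p = 0.803). At Pfkfb3, a regulator of phosphofructokinase, a weak site fell from 63.7, 41.2 and, for ATAC2, 32.1 to 6.15 and 14.7 (-2.08 ± 0.44, adjusted p = 0.000612) and passed with the prefix term.

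Enzymes that write and erase histone acetylation were called at about the share of all sites as deposited. Acetyltransferase genes had 1 higher and 3 lower of 62 (6.45%, median -0.10), and 0 and 0 with the prefix term, so all 4 calls were lost. Ncoa2, a nuclear receptor coactivator, had 1 site that fell (-1.07) and 1 that rose, Kat6b, an acetyltransferase, had the other 2 that fell (-1.36 at the one with the smaller adjusted p), and no site of Ep300 (3) was called. Deacetylase and sirtuin genes had 4 higher and 2 lower of 102 (5.88%, median -0.05). Their median with the prefix term was 0.18, against -0.05 over all sites with the term. Hdac7 rose in its body from 52.4, 40.2 and, for ATAC2, 33.2 to 111 and 81.4 (1.19 ± 0.35, adjusted p = 0.0231, 1.49 ± 0.43 with the prefix term), and Hdac8 rose by 1.17. Hdac4 had 2 of 28 sites lower (-1.26 and -1.19). The calls at Hdac8 (1.03, adjusted p = 0.088) and at both Hdac4 sites (-0.54 and -0.66) were lost with the prefix term. Of the 11 sites of Hdac9 none was called as deposited, 2 had an unadjusted p under 0.05, 3 were higher with the prefix term and 1 with cyclic loess. Acetyl-lysine readers had 1 and 1 of 73 (median -0.15). In Bptf, a chromatin remodelling subunit, chr11:107119990-107120190 fell from 618, 508 and, for ATAC2, 408 to 234 and 249 (-1.06 ± 0.23, adjusted p = 0.00124), a call lost with the prefix term (-0.75, adjusted p = 0.119), and Mllt3, a reader of the super elongation complex, had a site that rose (1.05, 1.80 with the prefix term).

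The other lists held few calls as deposited. NRF2 and oxidative stress genes had 3 higher and 0 lower of 54 (5.56%), including Gclc, which makes the precursor of glutathione (0.96), and Txnrd1, thioredoxin reductase (0.90), and both passed with the prefix term. Integrated stress response and amino acid supply genes had 0 and 1 of 46, the interferon response 0 and 2 of 45, and apoptosis genes 1 and 1 of 82, where the fall was at Cflar, an inhibitor of death receptor signalling (-1.12), a call lost with the prefix term (-0.76, adjusted p = 0.18). Cell cycle genes had 0 of 77 called by limma, with 13 at an unadjusted p under 0.05, 2 higher and 1 lower with the prefix term, and 1 lower with cyclic loess.

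Sites near markers of other cells gave no common direction. Of 25 sites at CD8 T cell markers 2 rose and 0 fell, both assigned to Runx3 (1.14 at the one with the smaller adjusted p, which was lost with the prefix term at 0.82), and their summed signal was 5692 to 6925 untreated and 6614 to 7200 with acetate. For B cell markers 1 rose (Ebf1, 1.14) and 1 fell (Fcmr, -0.80) of 26, and the sums were 2876 to 3843 and 2797 to 3015. Myeloid markers had 0 of 7 called by limma and 0 at an unadjusted p under 0.05, with sites at 4 of 13 genes and sums of 1665 to 2022 and 1662 to 1941. NK and innate lymphoid markers had 1 higher (Klrb1c, 1.06) and 1 lower (Il18r1) of 62 (11939 to 14802 and 12388 to 13221), and gamma-delta T cell markers 1 higher (Maf) and 1 lower (Cd163l1, -0.83) of 12 (1567 to 1909 and 1514 to 1551). The calls at Fcmr (-0.18, adjusted p = 0.786), Klrb1c (0.70), Il18r1, Maf and Cd163l1 (-0.84) were lost with the prefix term. The call at Ebf1 was lost with cyclic loess. The part of other cells in the results was not tested.

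Some genes had several sites called in 1 direction, over stretches of very different length. The genes described here had at least 4 sites called in 1 direction, a threshold set after the values were seen. They were picked from 12273 genes with a site, and 2.91% of all sites were called higher and 3.02% lower. Beside Emsy, which encodes a BRCA2-binding repressor, 8 of 15 sites fell, in a stretch of 24.3 kb (chr7:98562323-98586596) on the side of the gene that faces Lrrc32. Mean signal over the 8 was 237.9, 188.8 and, for ATAC2, 129.4 untreated, and 84.2 and 63.6 with acetate. The ATAC2 library was thus the lowest of the untreated libraries, and 2 of the 8 passed with the prefix term and loess. Their median log2 difference was -1.34, and -0.83 with the prefix term.

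Cd70, the ligand of the co-stimulatory receptor CD27, had 4 of 7 sites higher over 19.1 kb (chr17:57135093-57154217), and none of the 7 was below 0. Mean signal over the 4 was 83.0, 90.9 and, for ATAC2, 96.7 untreated, and 208.5 and 221.2 with acetate. All 3 untreated libraries lay close together there, and 3 of the 4 passed in all 3 fits. Their median difference was 1.24, and 1.07 with the prefix term. Gramd1b, a sterol transfer protein gene, had 5 of 21 higher (none in all 3 fits) and Hpcal1, a calcium sensor gene, 4 of 20 higher (1 in all 3 fits). The called sites of Gramd1b and Hpcal1 spanned 210.5 and 88.1 kb. The counts per gene are read against 2.91% of all sites called higher and 3.02% lower. Lower in several sites were Cradd, a death domain adaptor (7 of 17), Spef2 (5 of 22), Hipk2, a protein kinase (5 of 16), and Maml2, a Notch coactivator (4 of 38). Medians over the called sites were -0.99, -1.01, -1.25 and -0.92. In the same order, the called sites spanned 169.4, 130.1, 133.5 and 163.2 kb. Of these called sites 1, 2, 1 and 1 passed in all 3 fits, and the others were lost in at least 1 of them.

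**Figure D4:**
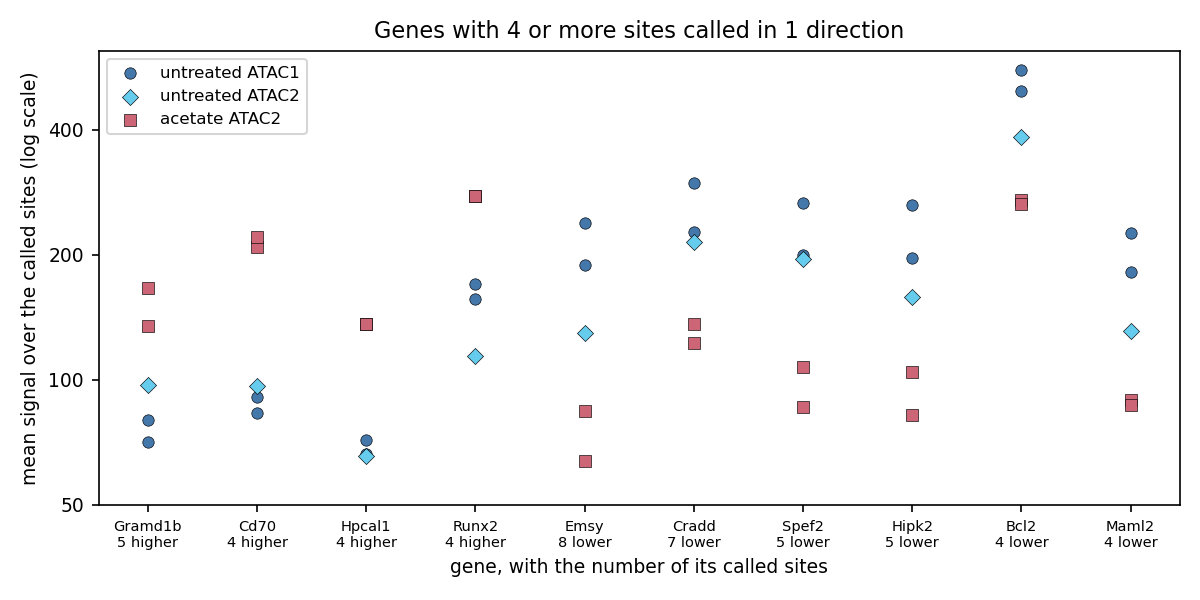
Mean signal as deposited over the called sites of each gene (y axis, log scale) in the 5 WT libraries, for 10 genes with at least 4 sites called in 1 direction (x axis, with the number of sites). At Cd70 the untreated ATAC2 library sits with the other untreated libraries at 96.7, while at Emsy it lies between them and the acetate libraries at 129.4.

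In the plot of genes with several called sites, each gene's acetate libraries stand apart from its untreated libraries, which follows from the choice of sites. The place of the untreated ATAC2 library is not fixed by that choice. It was the untreated library nearest to the acetate libraries at all of these genes but Runx2 and Hpcal1, where it was the farthest from them.

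The WT difference as deposited is computed from WT libraries alone, but the WT and KO calls share 1 estimate of spread per site and are not independent. Cyclic loess scaled all 10 libraries together, so KO libraries also shaped the WT values on that scale. All KO acetate libraries are ATAC2 and all KO untreated libraries are ATAC1, so acetate and prefix cannot be told apart in KO. As deposited, 60.6% of all sites were called between acetate and untreated KO (54.6% higher, 5.94% lower), with a median shift of 0.61, and cyclic loess is used here for that reason. It called 28.2% of all sites in KO, 11.5% higher and 16.7% lower. Of the 1155 sites higher in WT, 698 (60.4%) were called higher in KO, which is 15.3% of the 4567 called higher there, and 166 were called lower. Of the 1199 lower in WT, 942 (78.6%) were called lower in KO, 14.2% of 6625, and 0 were called higher. The overlap depended on the scale. With KO as deposited, 819 (70.9%) of the 1155 were called higher, against 54.6% of all sites. Of the 1199, 239 (19.9%) were then called lower, against 5.94% of all sites. At Fbxw11 the KO means were 56.7 ± 10.2 (SD, n = 3) untreated and 244 ± 8.12 (SD, n = 2) with acetate, a loess log2 difference of 1.42 ± 0.20, and at Ccm2 they were 152 ± 23.5 and 92.8 ± 26.7 (-1.40 ± 0.19). Of the named largest changes, 11 of 13 rises and 13 of 13 falls were called in the same direction in KO with loess. With KO as deposited it was 13 of 13 rises and 6 of 13 falls. The test of the difference between the genotypes' acetate effects called 23.1% of all sites as deposited (19.5% higher in KO, 3.61% lower) and 7.50% with loess (0.139% and 7.36%). The rises not called in KO with loess were those near Cd70 (0.12 ± 0.20, limma adjusted p = 0.693) and Nav1 (0.19 ± 0.28, adjusted p = 0.65). Both were called higher in KO as deposited (0.78 ± 0.24, limma adjusted p = 0.00417, and 0.85 ± 0.24, adjusted p = 0.00206).

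**Figure D5:**
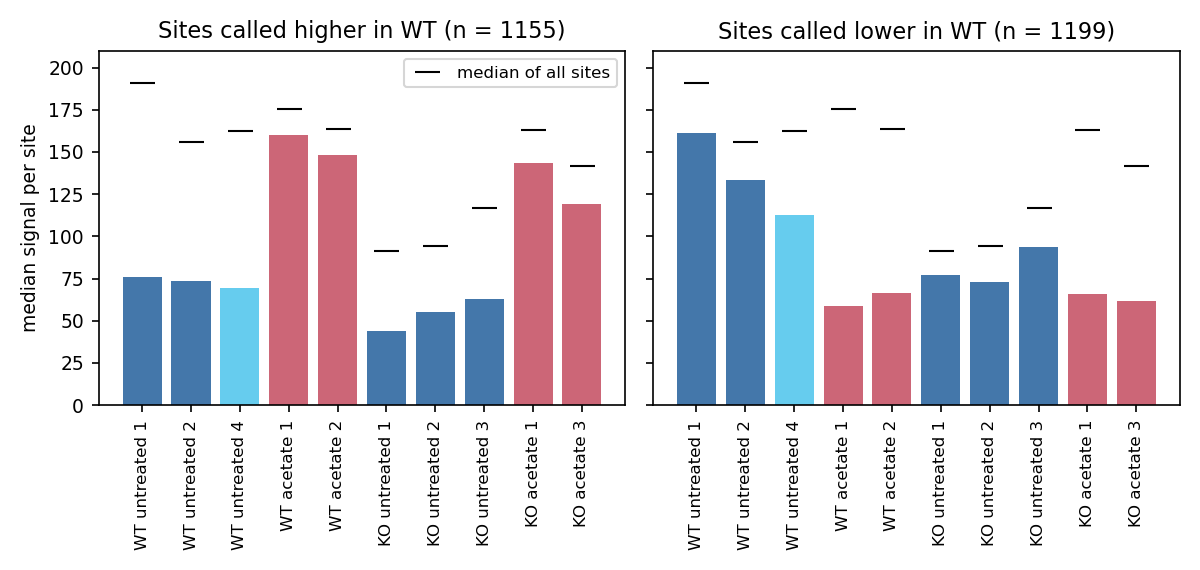
Median signal as deposited (y axis) at the 1155 sites called higher (left) and the 1199 called lower (right) in WT, in each of the 10 libraries (bars from 0; x axis), with black dashes for the median over all 39657 sites. At the sites called higher the untreated libraries stand at 69.7 to 76.2 in WT and 43.9 to 62.7 in KO, and the acetate libraries at 119.2 to 160.0; the untreated KO libraries are also the lowest over all sites.

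The bar plot by library also shows the sites called lower: WT untreated libraries stood at 112.8 to 161.1, KO untreated at 72.9 to 93.4, and acetate libraries of both genotypes at 58.5 to 66.7. The order of the untreated genotypes depended on the scale. As median log2 signal after cyclic loess, sites called lower stood at 6.65 to 6.89 in untreated WT and 6.97 to 7.02 in untreated KO, and sites called higher at 5.79 to 6.03 and 6.24 to 6.58. Acetate libraries of both genotypes stood at 5.63 to 5.98 and 6.91 to 7.07. Whole-library measures on the deposited scale did not separate the WT groups. Summed signal depends on each library's scaling factor, whose making is not given, so it cannot show whether total accessibility differed. Summed signal over nuclear sites, divided by their number, was 284, 227 and, for ATAC2, 268 untreated, and 271 and 235 with acetate. The means were 259.6 ± 29.0 (SD, n = 3) and 253 ± 25.2 (SD, n = 2; two-sided exact permutation p = 1). Mitochondrial signal was 0.390 ± 0.237% (SD, n = 3) and 0.332 ± 0.186% (SD, n = 2; two-sided exact permutation p = 0.8), and the smallest p that 2 against 3 libraries allow is 0.2.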

How the data were processed

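Sites and signal were used as deposited: the authors' table gives 1 signal value per site and library, which proved to be whole reads divided by 1 factor per library (100% of values within 0.001 reads), and no source used here says how that factor was made. The tools named, with no role given, per the submitters' processing notes, were BWA 0.7.16a, Genrich and DiffBind 3.6.1, beside deepTools 3.5.1, Picard 2.10.9, FastQC 0.11.5 and DESeq2. Site names are numbered as differential ones, so the table is taken as selected on these samples; 98.0% of sites are 201 bp wide. The planned count test gave way to limma because the values are normalized.

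A linear model of log2(value + 1) was fitted in R 4.3.3 by limma 3.58.1, with a trended and robust variance. It held the 4 group means, took in every one of the 10 libraries, and used Benjamini-Hochberg adjustment over all sites; fold changes on this scale understate those of weak sites. The columns numbered WT 4 and KO acetate 3 match no title's number and were placed by group. With the prefix term the untreated ATAC2 library is assumed to vary like the others. Each site took the nearest protein-coding gene within 50 kb (RefSeq, GRCm38.p6); being near a gene does not show control of it. Other tables were made in Python 3.11.15 (scipy 1.17.1, pandas 2.3.3, numpy 2.4.6) and figures with matplotlib 3.10.9. The scripts were tested on simulated data.

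Named sites were the 10 largest rises and falls that passed, had at least median signal and showed no overlap of the WT groups, the 10 among those also called with the prefix term and loess, 35 fixed loci, and up to 4 called members of each of 25 gene lists (440 genes, 437 found in the gene table, 362 with a site). Comparison, lists and loci were chosen with earlier results of these data known. Some results under this rule are not reported here.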

Additional observations from a re-analysis of the deposited data

Results flagged for a closer look

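At 5 named sites the effect of acetate differed between KO and WT, by limma's test of the genotype by acetate term, both as deposited and with cyclic loess. As deposited, 45 of the 145 named sites passed that test. The median over all sites was 0.67 in it, and deposited signal was lower in untreated KO libraries at the median site, so the 5 that also passed with cyclic loess are given. That narrowing was made after the 45 were seen, and 7.50% of all sites passed with loess. The values below are the KO effect minus the WT effect on the log2 scale as deposited.

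The site near Batf differed by -2.41 ± 0.39 (-3.17 ± 0.32 with loess). Signal rose in WT as given in the report and read 114, 189 and 218 in untreated KO and 126 and 95.0 in KO with acetate. At Hdac9 (chr12:34532158-34532358), where WT did not pass (log2 0.70), the difference was -1.69 ± 0.47, with 58.1, 92.5 and 121 in untreated KO and 58.0 and 31.7 with acetate. Suclg2 gave -1.48 ± 0.50, Gclc -1.11 ± 0.34, and Olfr175, an odorant receptor gene whose promoter held the site, -1.43 ± 0.36. In these 5, KO means were 173 ± 53.4, 90.4 ± 31.3, 58.2 ± 12.4, 299 ± 70.3 and 205 ± 49.7 (SD, n = 3) untreated and 111 ± 22.0, 44.8 ± 18.6, 50.2 ± 13.4, 266 ± 24.8 and 162 ± 48.0 (SD, n = 2) with acetate. All untreated KO libraries are ATAC1, so the prefix cannot be told apart from acetate in KO.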

How the results depend on the processing

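Counts of sites called higher and lower with acetate in WT were 1155 and 1199. They stayed within 1.5 times with median-of-ratios factors, total signal, pseudocount 8 and a mean signal of at least 20, with 1626 and 1169 as extremes. Cyclic loess gave 1757 higher. They moved further with only the 5 WT libraries (369 and 364), with ATAC2 libraries alone (2231 and 549), with acetate against the untreated ATAC1 libraries alone (2368 lower), with the prefix as a term (412 lower) and with the prefix term and cyclic loess together (3283 and 1839). Leaving out 1 library gave 132 to 1692 higher and 154 to 2370 lower. A replicate block by the number in the column name gave 1600 higher and 2255 lower. The deviations of same-numbered WT libraries from their group means correlated at 0.05 and 0.33 over 2 pairs. With 2 acetate libraries, pairs of unlike number give the same values with the sign turned, by construction. The numbers are not stated to pair libraries, and the block is not used. With the prefix term, 1555 and 412 became 3283 and 1839 (cyclic loess), 3479 and 1674 (median of ratios) and 3990 and 1230 (total signal). Between untreated ATAC2 and ATAC1, 774 and 1268 became 2783 and 3289, 2986 and 3383, and 2315 and 4253. The cause of these moves was not tested. None of the 121 named called sites reversed; 115 passed with loess and 48 with the prefix term. Where the WT groups do not overlap, the sign cannot turn with 1 library left out or with the prefix term. Of the 121, 45 passed with only the 5 WT libraries. The fewest passed without the first acetate library. The 2 planned edgeR tests were not run. The shallowest acetate library, at a median of 57 reads per site, limits weak sites most.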

Other observations

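By chromosome, the share of sites called higher with acetate in WT cells ran from 1.48% on chromosome 19 (1217 sites) to 3.81% on chromosome 16 (1232 sites), and the share called lower from 1.41% on the X chromosome (640 sites) to 4.19% on chromosome 15 (1886 sites), among chromosomes with more than 5 sites. These shares were not tested.

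In a principal component analysis of the 5 WT libraries after cyclic loess, the first component held 48.5% of the variance and the second 32.1%. On the first, untreated libraries 1 and 2 scored -51.3 and -43.0, the untreated ATAC2 library -8.38 and the acetate libraries 60.7 and 41.9. On the second the untreated ATAC2 library scored 70.4, and the other 4 lay between -33.4 and -7.98.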
